A study of Mus musculus with 12 samples.

Results

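The genes of leukotriene and prostaglandin synthesis and signalling were followed in mouse blood progenitors that carried the leukaemia fusion RUNX1-ETO or an empty vector, with or without GM-CSF. Every probe annotated to Alox5, Alox5ap, Ltc4s, Lta4h, Ltb4r1, Alox15, Ptgs1, Ptgs2, Hpgds or Ptges was taken, whatever its measured values. The list of genes was itself chosen with earlier results of these data known. Of the 16593 genes with a probe on the array, 9 of the 10 listed were represented, by 14 of 25697 probes. Ptgs1 was not analysed here. Of the 14 probes 12 were above the array background on at least 3 of the 12 arrays, and all 9 genes had at least 1 such probe.

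Bone marrow of C57Bl/6J mice gave the lineage-negative cells, which were grown with serum in StemSpan SFEM, and all 4 groups shared the cytokines IL-3, SCF and FLT3L. They were transduced with the retroviral vector MigR1, which carries GFP, either empty (Mig) or with HA-tagged RUNX1-ETO (RE). After transduction, cells were kept for 24 h without GM-CSF (Mig, RE) or with it at 10 ng/mL (Mig+GM, RE+GM), so that the fusion had been expressed for 48 h. GFP-positive, lineage-negative, c-Kit-positive cells were then sorted, and their RNA was measured on BeadChips (Illumina, Mouse Ref-8 v2.0) with 3 arrays per group. RUNX1-ETO joins the DNA-binding part of RUNX1 to ETO and is made by a recurrent chromosome translocation of acute myeloid leukaemia; GM-CSF is a cytokine that supports growth and maturation of myeloid cells. The fusion was driven by a retroviral vector in cultured cells, and the labels do not give the sex, age or number of the mice. They do not say whether the arrays of a group came from separate mice or cultures, so the p-values here speak only of the spread among arrays.

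Leukotrienes and prostaglandins are lipid mediators made from arachidonate, which phospholipases release from membranes. In the leukotriene branch, 5-lipoxygenase and its partner FLAP make leukotriene A4, which is turned into leukotriene B4 by one enzyme or joined to glutathione by another, and leukotriene B4 draws in and activates myeloid cells through its receptor BLT1. In the prostaglandin branch, cyclooxygenases make prostaglandin H2, which several synthases turn into the prostaglandins and thromboxane. Myeloid cells, mast cells in particular, are known as sources of these mediators.

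The sequences just before the start sites of 3 members are shown because these members carried the changes described here, and because the fusion keeps the part of RUNX1 that binds DNA. They are 250 bases each, ending at the base before the start site, on the gene's strand, from RefSeq (GRCm38.p6), which held an entry for 8 of the 10 listed genes. Alox5ap and Alox15 are named only. Ltb4r1 lies at chr14:55765712-55765961 (plus strand), Alox5 at chr6:116461179-116461428 (minus strand) and Lta4h at chr10:93453146-93453395 (plus strand). Capitals mark matches on either strand to TGTGGT, the core letters that RUNX proteins recognise, or to GGGCGG, the letters of an Sp1 box.
Ltb4r1: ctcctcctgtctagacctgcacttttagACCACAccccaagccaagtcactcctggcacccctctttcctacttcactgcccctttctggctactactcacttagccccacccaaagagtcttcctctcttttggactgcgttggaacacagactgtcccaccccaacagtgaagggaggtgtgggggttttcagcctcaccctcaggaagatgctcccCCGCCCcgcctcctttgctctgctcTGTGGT
Alox5: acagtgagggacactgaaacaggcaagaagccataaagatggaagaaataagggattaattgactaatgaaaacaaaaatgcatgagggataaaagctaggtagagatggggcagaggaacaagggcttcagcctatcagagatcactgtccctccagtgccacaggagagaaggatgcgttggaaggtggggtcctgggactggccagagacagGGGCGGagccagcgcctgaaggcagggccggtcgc
Lta4h: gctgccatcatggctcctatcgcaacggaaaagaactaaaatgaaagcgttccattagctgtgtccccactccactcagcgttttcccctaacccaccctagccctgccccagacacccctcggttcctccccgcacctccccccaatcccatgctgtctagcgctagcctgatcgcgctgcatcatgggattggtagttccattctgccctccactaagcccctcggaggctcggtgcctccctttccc
In windows of 300 bases that ran to 50 bases past the start, TGTGGT matched 2 times in Ltb4r1, at -222 to -217 and at -6 to -1 from the start site. It matched 1 time each in Ltc4s, Ptgs2 and Hpgds and was not found in Alox5, Lta4h, Ptgs1 or Ptges. Of 32851 RefSeq windows of that length, 16.8% held it. GGGCGG matched at -31 to -26 in Ltb4r1 and at -35 to -30 in Alox5, and 35.7% of all windows held it. The STAT letters TTCNNNGAA (8.3% of windows) and the AP-1 letters TGANTCA (7.8%) were found in none of the 8 members. No motif overlapped another in the windows shown. A match is a run of letters and not a measured binding site.

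In the series as a whole, the mean deposited signal per array ran from 318 to 597, and 50.2% to 63.3% of probes were above background. RE replicate 3 had the highest share of probes above background, and its mean signal of 429 was above the 318 and 338 of the other RE arrays. Correlations over all units tested were 0.972 to 0.994 between arrays of a group and 0.888 to 0.996 between arrays of different groups. A probe of Runx1t1, the mouse gene of the ETO part, was above background on every RE and RE+GM array and on no Mig or Mig+GM array, with mean levels of 8.01 and 8.47 against 6.15 and 6.15. Its other probe did not separate the groups (log2 change -0.11 without GM-CSF and -0.05 with it), and the sources used here do not say whether either probe lies in the transduced part. Kit, whose product was used in the sort, had no probe in the annotation used. Without GM-CSF, the progenitor gene Cd34 was higher in RE than in Mig cells (log2 change 1.97). Between the groups given GM-CSF, the fusion again went with more Cd34 (1.46), with an RE+GM mean of 9.46 and a Mig+GM mean of 8.

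Levels below are log2 of the background-corrected and quantile-normalised intensity with an offset of 50, which makes the folds of dim probes smaller than the signals alone would give. The test was limma's moderated test over 12109 units, called at a Benjamini-Hochberg adjusted p under 0.05. RE cells held less message than Mig cells for the 3 genes that lead from arachidonate to leukotriene B4: Alox5, Alox5ap and Lta4h fell both without and with GM-CSF. The gene of the leukotriene B4 receptor, Ltb4r1, was about level in RE and Mig cells without GM-CSF and stood 6.4-fold above the Mig+GM mean in RE+GM cells. Ltc4s, which opens the branch to the cysteinyl leukotrienes, and the prostaglandin genes Ptgs2, Hpgds and Ptges passed no test.

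Without GM-CSF limma called 0 of the 9 genes higher and 3 lower, leaving 6 uncalled, and the median change was 0 against -0.04 over all units. In that comparison limma called 17.5% of all units higher and 20.2% lower, so calls were common throughout. At an unadjusted p under 0.05 the member counts were again 0 higher and 3 lower. With GM-CSF, 2 were called higher, 3 lower and 4 not (median 0.01 against -0.05), where 18.8% of all units were called higher and 23.4% lower. One of the 2 called higher, Alox15, passed the filter on dim probes only through its RE+GM arrays; with probes above background on at least 6 arrays it was not tested, and 1 member was called higher and 3 lower. The share of members lower, 3 of 9 in each comparison, stands beside about 1 unit in 5 over the array. GM-CSF in Mig cells called 0 of the 9 genes by limma, and 0 at an unadjusted p under 0.05, where it called 0.00826% of all units higher (1 unit, Bcat1) and 0% lower. In RE cells GM-CSF called 1 gene higher and 0 lower, against 1.9% and 0.363% of all units. The interaction, which asks whether the GM-CSF effect differed between RE and Mig cells, called 1 gene higher and 0 lower, against 0.264% and 0%. The GM-CSF comparisons use the same arrays as the comparisons of RE with Mig cells, so the 2 kinds of comparison are not separate evidence.

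**Figure D1:**
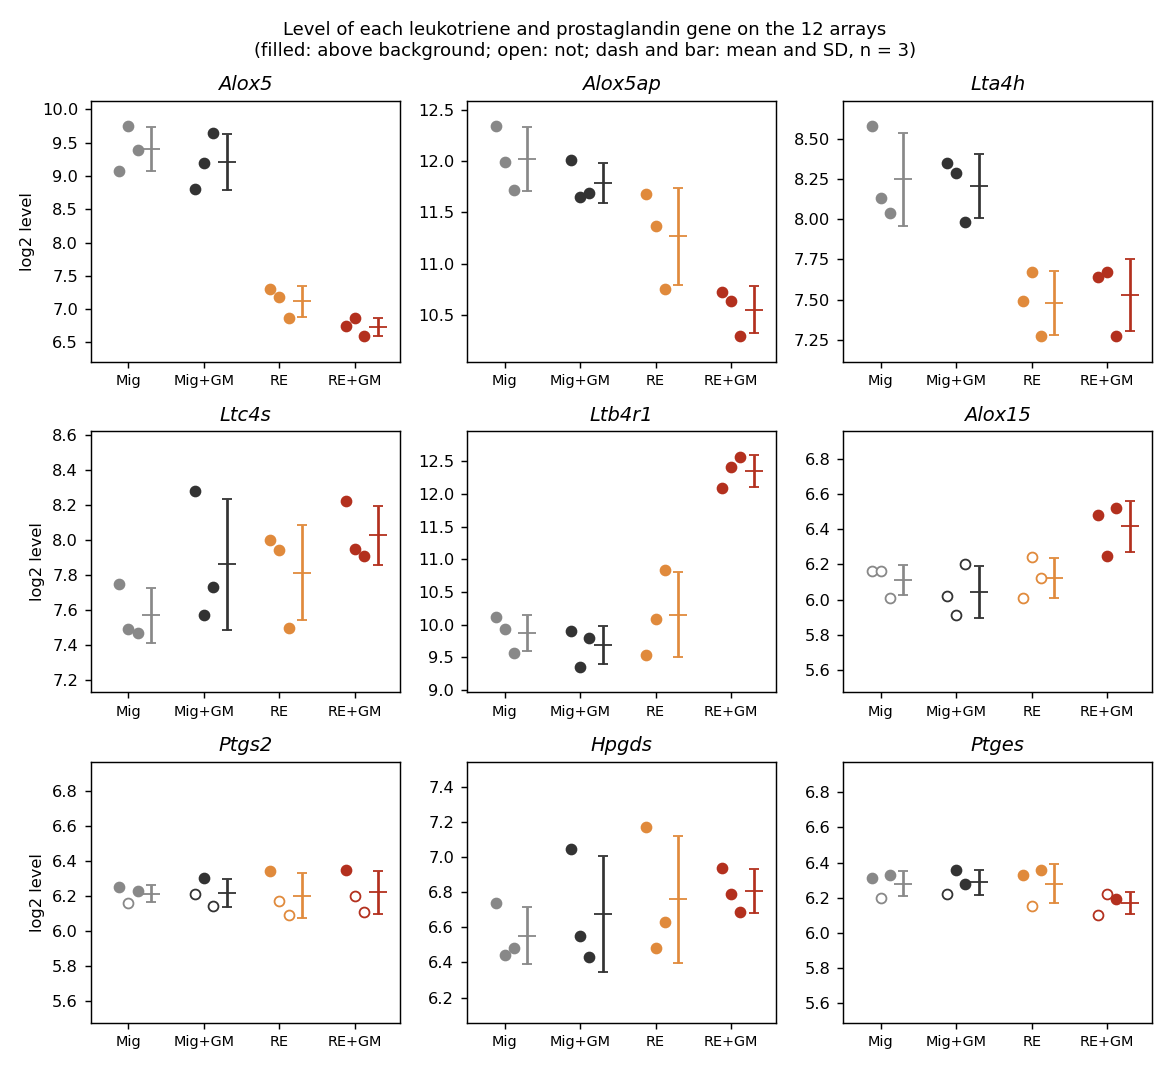
Log2 level (vertical axis) of each gene's brightest probe on the 12 arrays, by group; filled points were above background, open points were not, and dashes with bars give the mean and SD of 3 arrays. Alox5 separates the Mig groups from the RE groups, Ltb4r1 stands high on the 3 RE+GM arrays (12.09 to 12.57), and Ptgs2 and Ptges lie near background throughout.

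Alox5, the gene of 5-lipoxygenase (chromosome 6, 116410071 to 116461178), was measured above background on all 12 arrays by its single probe. Its log2 levels were 9.08, 9.75 and 9.39 in Mig cells and 8.80, 9.20 and 9.64 in Mig+GM cells. They were 7.31, 7.19 and 6.86 in RE cells and 6.74, 6.87 and 6.59 in RE+GM cells. Every array with the fusion lay below every array without it. The deposited signals were 709 to 860 in Mig and 118 to 128 in RE cells. Alox5 fell by 2.28 on the log2 scale in RE against Mig cells (SE 0.21, adjusted p = 9.64e-06, 4.87-fold lower). It fell by 2.48 in RE+GM against Mig+GM cells (SE 0.21, adjusted p = 3.5e-06, 5.6-fold lower). By size these changes ranked 162 and 178 of 12109. GM-CSF changed neither side past the test: the log2 difference was -0.19 in Mig cells (interval -0.66 to 0.28) and -0.39 in RE cells (-0.86 to 0.08). The level was highest in Mig and lowest in RE+GM cells, but Mig and Mig+GM arrays overlapped, as did RE and RE+GM arrays. In sorted but bulk samples, fewer cells of a type and less RNA per cell cannot be told apart, here or in the results that follow.

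Alox5ap encodes FLAP, the membrane protein that presents arachidonate to 5-lipoxygenase (chromosome 5, 149265004 to 149288153). Its deposited signals lay between 1250 and 7460. The Mig arrays read 12.34, 11.99 and 11.72 and the Mig+GM arrays 12.01, 11.65 and 11.69 on the log2 scale. The RE arrays read 11.68, 11.37 and 10.75 and the RE+GM arrays 10.72, 10.64 and 10.29. The highest RE array lay just under the lowest Mig array, and the RE+GM arrays lay below all others. Alox5ap fell by 0.75 in RE against Mig cells (SE 0.23, adjusted p = 0.0208, 1.69-fold lower). It fell by 1.23 in RE+GM against Mig+GM cells (SE 0.23, adjusted p = 0.000871, 2.35-fold lower). The first of these calls was lost without Mig replicate 1 (-0.59, adjusted p = 0.0834) and without RE replicate 3 (-0.5, adjusted p = 0.0737). It was also lost in the authors' normalised values (-0.62, adjusted p = 0.0727) and with the fit limited to the groups compared (adjusted p = 0.0556); over all 23 alternatives the adjusted p ran from 0.000558 to 0.0834.

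For Alox5ap the GM-CSF difference in RE cells was -0.71 (SE 0.23), with groups that did not overlap. Across all units this missed the threshold (adjusted p = 0.136), and with the replicate number as a block it passed (-0.71, adjusted p = 0.0106). By replicate number the differences were -0.96, -0.72 and -0.46. Without RE replicate 3, which stood lowest of the RE arrays, the difference was -0.97 (adjusted p = 0.0171), and over the alternatives the adjusted p ran from 0.0106 to 0.44. In Mig cells the difference was -0.23 (interval -0.73 to 0.26). The difference between these effects was -0.48 (SE 0.32) and was not called (adjusted p = 0.706).

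Lta4h, the hydrolase that makes leukotriene B4 (chromosome 10, 93453396 to 93484896), had 2 probes above background on all 12 arrays. The brighter read 8.58, 8.13 and 8.04 in Mig cells and 8.35, 8.29 and 7.98 in Mig+GM cells. It read 7.49, 7.67 and 7.27 in RE cells and 7.64, 7.67 and 7.27 in RE+GM cells. As for Alox5, no array with the fusion reached any array without it. Lta4h fell by 0.77 without GM-CSF (SE 0.17, adjusted p = 0.0035, 1.71-fold lower). With GM-CSF it fell by 0.68 (SE 0.17, adjusted p = 0.00633, 1.6-fold lower). The dimmer probe fell too, by 0.54 and 0.61 (adjusted p = 0.0187 and 0.00853 over all kept probes). GM-CSF differences were -0.04 in Mig and 0.05 in RE cells, with intervals of -0.41 to 0.33 and -0.32 to 0.42. These falls were called under all 23 alternatives, as were those of Alox5.

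Ltc4s, the synthase that joins leukotriene A4 to glutathione (chromosome 11, 50236461 to 50238532), was above background on all 12 arrays. The Mig arrays read 7.75, 7.49 and 7.47 and the Mig+GM arrays 8.28, 7.57 and 7.73. The RE arrays read 8, 7.94 and 7.5 and the RE+GM arrays 8.22, 7.95 and 7.91. All 4 groups overlapped their neighbours in this order. The log2 difference was 0.24 in RE against Mig cells (interval -0.16 to 0.65) and 0.16 in RE+GM against Mig+GM cells (-0.24 to 0.57). A fall of the size seen for Alox5ap or Lta4h in the same comparison lies outside these intervals. Changes from -0.16 to 0.65 without GM-CSF and from -0.24 to 0.57 with it lie within them. GM-CSF differences were 0.29 in Mig and 0.21 in RE cells and were not called.

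Ltb4r1 encodes BLT1, the high-affinity receptor of leukotriene B4 (chromosome 14, 55765962 to 55768492). The single probe was above background on all 12 arrays. Levels were 10.12, 9.93 and 9.57 in Mig cells and 9.90, 9.35 and 9.79 in Mig+GM cells. They were 9.54, 10.08 and 10.84 in RE cells and 12.09, 12.41 and 12.57 in RE+GM cells. The 3 RE+GM arrays stood above all 9 others, and the other 3 groups overlapped. Among the RE arrays replicate 3 was highest, at a deposited signal of 1900 where the lowest was 492; the RE+GM signals were 4600 to 6070.

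With GM-CSF, Ltb4r1 rose by 2.68 on the log2 scale in RE+GM against Mig+GM cells (SE 0.28, adjusted p = 1.41e-05, 6.4-fold). Without GM-CSF the difference was 0.28 (SE 0.28, adjusted p = 0.489), with an interval of -0.33 to 0.90. GM-CSF raised Ltb4r1 in RE cells by 2.2 (SE 0.28, adjusted p = 0.00203, 4.61-fold), in 3 of 3 numbered pairs, by 2.55, 2.33 and 1.73. That change ranked 21 of 12109 by size. In Mig cells the GM-CSF difference was -0.19 (interval -0.81 to 0.42). Both calls involving RE+GM arrays held under all 23 alternatives, with values of 2.51 to 2.81 and 1.90 to 2.55.

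The GM-CSF effect on Ltb4r1 was larger in RE than in Mig cells by 2.40 (SE 0.40, interval 1.53 to 3.27, adjusted p = 0.0411), rank 13 of 12109 by size. This call rests near the threshold. It was lost with arrays scaled to one median (2.86, adjusted p = 0.0896), in the authors' normalised values (2.42, adjusted p = 0.0723) and on leaving out any of 11 of the 12 arrays. Those 11 fits gave 2.09 to 2.55 with an adjusted p of 0.0535 to 0.145, and without RE replicate 3 the adjusted p was 0.0012. The size thus stayed between 2.09 and 2.86 over all 22 alternatives run, while the call did not.

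**Figure D2:**
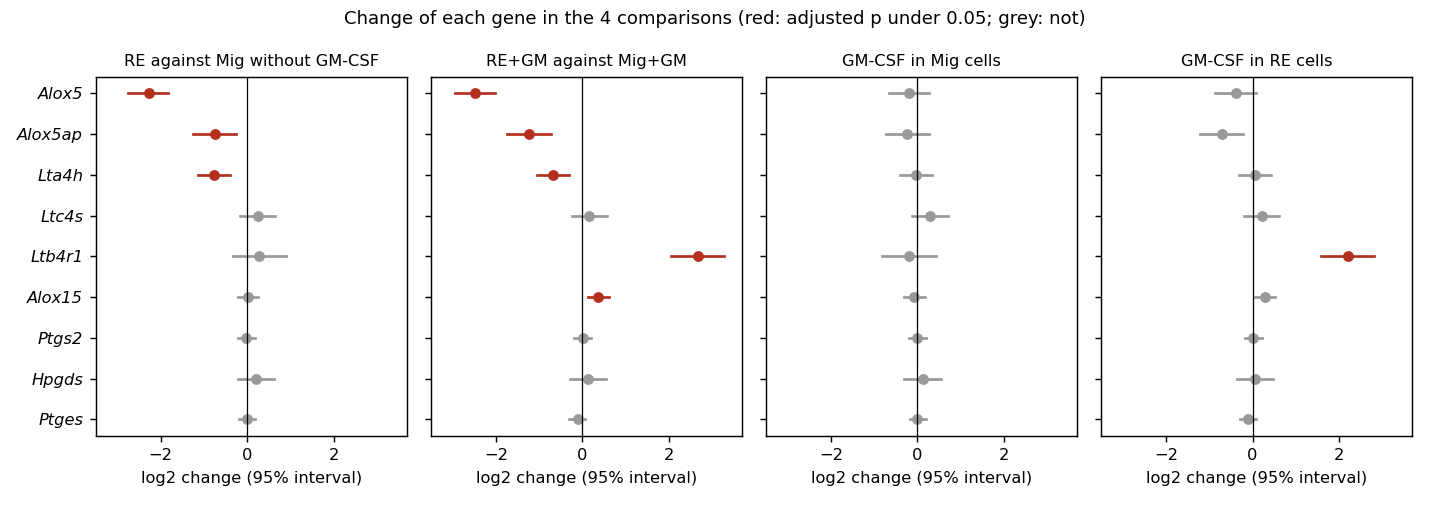
Log2 change with its 95% interval (horizontal axis) of each of the 9 genes in 4 comparisons; red marks an adjusted p under 0.05. Alox5, Alox5ap and Lta4h lie left of 0 in both comparisons of RE with Mig cells, and Ltb4r1 lies right of 0 in the 2 comparisons that involve RE+GM arrays, with Alox15 called in 1 of them.

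Alox15, the gene of another arachidonate lipoxygenase (chromosome 11, 70344147 to 70390538), was near background. Its brighter probe was above background on the 3 RE+GM arrays and on none of the other 9, so it passed the filter through the group where it was high. The Mig arrays read 6.16, 6.16 and 6.01 and the Mig+GM arrays 6.02, 5.91 and 6.20. The RE arrays read 6.01, 6.24 and 6.12 and the RE+GM arrays 6.48, 6.25 and 6.52. The lowest RE+GM array was barely above the highest RE array. In RE+GM against Mig+GM cells Alox15 was at least 1.12-fold higher, taking the dim group at the lowest signal above background on each array. The fit gave an adjusted p of 0.0138, which supports nothing further, since the probe was tested only because it was high in RE+GM cells. The call was lost without Mig+GM replicate 2 (0.31, adjusted p = 0.0593), RE+GM replicate 1 (0.34, adjusted p = 0.0525) or RE+GM replicate 3 (0.32, adjusted p = 0.0591). GM-CSF in RE cells was not called (adjusted p = 0.182). The other Alox15 probe was above background on no array.

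Among prostaglandin genes, Hpgds was above background on all 12 arrays, and Ptgs2 and Ptges on some. Hpgds, the haematopoietic prostaglandin D synthase (chromosome 6, 65117293 to 65144981), read 6.74, 6.44 and 6.48 on the Mig arrays and 7.05, 6.55 and 6.43 on the Mig+GM arrays. The RE arrays gave 7.17, 6.48 and 6.63, and the RE+GM arrays 6.94, 6.79 and 6.69. The 4 groups overlapped. Its difference was 0.21 without GM-CSF (interval -0.22 to 0.63) and 0.13 with it (-0.29 to 0.55), and its dimmer probe, above background on 8 arrays, was not called either. Ptgs2, the inducible cyclooxygenase (chromosome 1, 150100031 to 150108234), had its brighter probe above background on 5 arrays and its other probe on none. Its group means were 6.22, 6.22, 6.20 and 6.22 in Mig, Mig+GM, RE and RE+GM cells. Ptges, the inducible prostaglandin E synthase (chromosome 2, 30889471 to 30931020), had probes above background on 7 and 3 arrays. Its brighter probe had means of 6.28, 6.28, 6.28 and 6.17. These arrays therefore bound Ptgs2 and Ptges as dim and do not show that either gene was silent.

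The other genes of the pathway were counted by role from a list of 69, of which 63 had a probe and 46 were tested. Without GM-CSF 11 rose, 4 fell and 31 were not called in RE against Mig cells, with a median change of 0.14 against -0.04 over all units. With GM-CSF 14 rose, 4 fell and 28 were not called (0.02 against -0.05). The 11 and 14 of 46 stand beside 17.5% and 18.8% of all units called higher, and no test of the list was made. Some of the genes called higher passed the filter only through arrays with the fusion, so the counts are not read as an excess. Akr1b8 and Pla2g2e were above background on no Mig or Mig+GM array. Alox12, Pla2g7 and Cysltr2 were above it on too few of those arrays to pass without the fusion arrays. Of the called genes, 10 of 15 and 14 of 18 were called under every alternative in which they were tested. Calls of Akr1b8, Pla2g2e, Alox12, Pla2g7 and Cysltr2 are among these and support nothing further, given how those genes passed the filter.

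Of 17 genes of arachidonate release and re-uptake, the longest of the role lists, 3 rose and 1 fell without GM-CSF, and 6 rose and 2 fell with it. Lpcat3, which puts arachidonate back into phospholipids, rose by 1.5 without GM-CSF and 1.74 with it (SE 0.16 each), from 10.28 to 10.40 in Mig cells to 11.38 to 12.20 in RE cells. Its other probe was also called in both comparisons. Pla2g15, a lysosomal phospholipase, rose by 1.77 and 1.27 (SE 0.18). Pla2g7, which degrades platelet-activating factor, rose by 1.36 without GM-CSF and was at least 1.79-fold higher with it. Pla2g12a, a secreted phospholipase, fell by 1.40 and 1.53 (SE 0.20), and its other probe fell by 0.90 and 0.43. Called with GM-CSF but not without it were Acsl4, which activates arachidonate for storage (1.06), and Mboat7, another arachidonate transferase (0.57). Pla2g2e, a secreted phospholipase, was at least 1.29-fold higher in that comparison. The interaction terms of these 3 genes were not called (adjusted p = 0.262, 0.658 and 0.566). Plaa fell by 0.34 with GM-CSF, a call lost without Mig+GM replicate 2 or any of the 3 RE+GM arrays and under 2 other alternatives.

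Alox12, the platelet-type lipoxygenase, was 1 of 3 lipoxygenases tested and the only one called. It was above background on 1 of 3 arrays in each of Mig and Mig+GM and on all 6 arrays with the fusion. Alox12 thus passed the filter only through the arrays where it was high. Its levels were 6.13 to 6.25 in Mig, 6.08 to 6.43 in Mig+GM, 7.68 to 8.84 in RE and 7.81 to 8.85 in RE+GM cells. The fitted rise was 2.03 without GM-CSF and 2.21 with it (SE 0.28 each). Its calls support nothing further, since the probe was tested only because it was high on arrays with the fusion. Among genes of leukotriene synthesis and breakdown, Mgst3, a glutathione transferase of the same family as Ltc4s, fell by 1.74 and 1.57 (SE 0.19). Mgst2, a transferase able to make leukotriene C4, rose by 1.57 without GM-CSF (SE 0.53, adjusted p = 0.0353), with groups that overlapped. That call was lost without Mig replicate 2, Mig replicate 3, RE replicate 1 or RE replicate 2 and under 2 other alternatives. Cyp4f13, of a family that oxidises leukotriene B4, rose by 0.45 and 0.38, where the first call was lost with arrays scaled to one median and the second without Mig+GM replicate 2 or RE+GM replicate 3. The cysteinyl leukotriene receptor gene Cysltr2 was at least 1.29-fold higher in RE than in Mig cells and rose by 0.68 with GM-CSF. The first call was lost without Mig replicate 1, Mig replicate 3 or RE replicate 3 and in the authors' normalised values.

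On the prostanoid side, Ptgir, the prostacyclin receptor gene, rose by 2.07 without GM-CSF (SE 0.18, adjusted p = 5.95e-06, 4.2-fold). With GM-CSF it rose by 2.04 (SE 0.18, adjusted p = 4.36e-06, 4.13-fold). Its levels were 7.06 to 7.42 in Mig, 7.16 to 7.86 in Mig+GM, 9.20 to 9.5 in RE and 9.22 to 9.59 in RE+GM cells. The groups with and without the fusion did not overlap, and GM-CSF differences were 0.13 and 0.11. Ptger2 rose by 0.40 and 0.43 and Ptger3 by 0.70 with GM-CSF, both receptors of prostaglandin E2. The other Ptger2 probe was not called. The Ptger2 call without GM-CSF was lost on leaving out any Mig array or RE replicate 1 and with the fit limited to the groups compared. The Ptger2 call with GM-CSF was lost without Mig+GM replicate 1. Of the 5 prostanoid receptors tested, 2 rose without GM-CSF and 3 with it, and none fell. Over all units 17.5% and 18.8% were called higher and 20.2% and 23.4% lower, and no test of these 5 as a set was made. Tbxas1, thromboxane synthase, fell by 0.78 and 0.62 (SE 0.13), and its other probe was not called with GM-CSF. The Tbxas1 call with GM-CSF was lost with arrays scaled to one median (adjusted p = 0.053). Akr1c18, an aldo-keto reductase, fell by 2 without GM-CSF (SE 0.56), a call lost without Mig replicate 3 or RE replicate 1. Cbr1, a carbonyl reductase that acts on prostaglandin E2, rose by 0.67 with GM-CSF, and Prxl2b, a prostaglandin F synthase, by 0.49 without it.

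**Figure D3:**
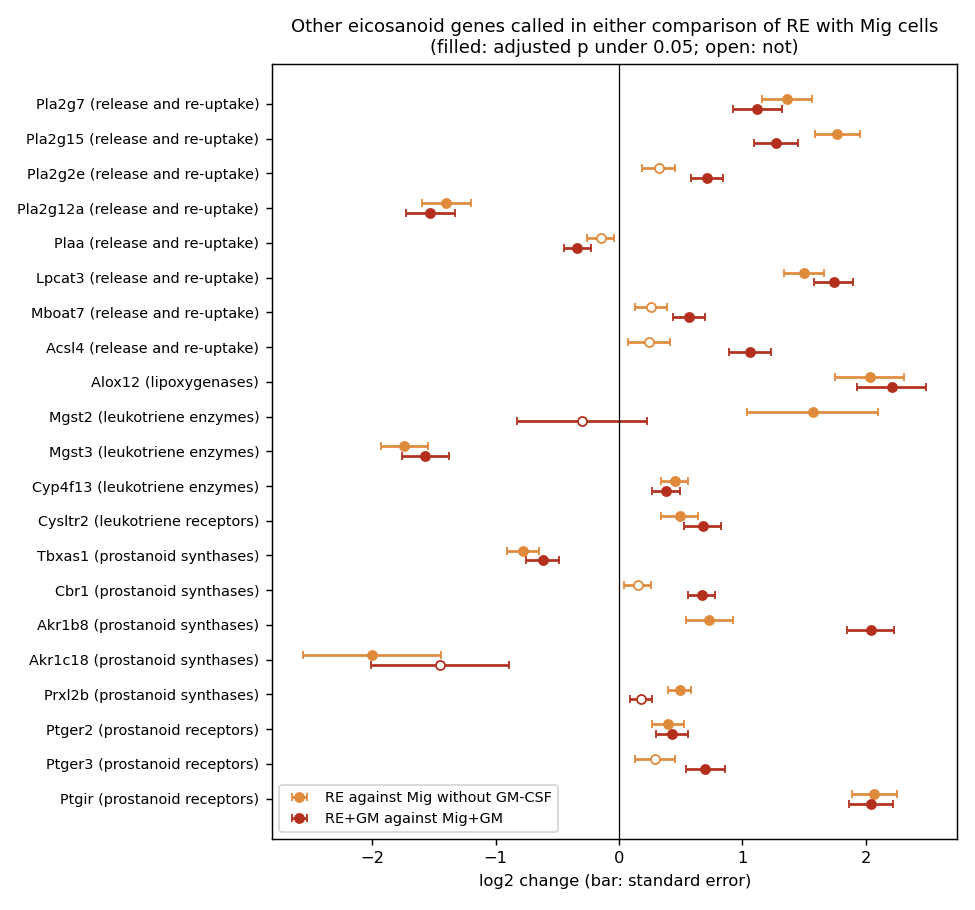
Log2 change with its standard error (horizontal axis) of the 21 other pathway genes called in at least 1 comparison of RE with Mig cells; orange points are without GM-CSF, red points with it, and open points were not called. Ptgir lies near 2 in both comparisons, as does Alox12, which passed the filter only through arrays with the fusion. Points of Akr1b8 and Pla2g2e, of Pla2g7 with GM-CSF and of Cysltr2 without it are fitted values against a group below background. For those points only the bounds in the text hold.

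GM-CSF in RE cells raised 2 of the 46 genes and lowered 0, where 1.9% and 0.363% of all units were called. At an unadjusted p under 0.05 the counts were 5 and 4. Akr1b8, an aldo-keto reductase of the family that holds prostaglandin F synthases, rose by 1.45 (SE 0.19, adjusted p = 0.0023). It read 6.38 to 7.30 in RE and 8.07 to 8.36 in RE+GM cells and was above background on no array of Mig or Mig+GM cells. Against those it was at least 1.42-fold higher without GM-CSF and at least 3.84-fold higher with it. Acsl4 rose by 1.05 with GM-CSF in RE cells (SE 0.17, adjusted p = 0.00812); of its 3 other probes 2 were called and 1 was not. In Mig cells GM-CSF called 0 of the 46 by limma, with 1 higher and 2 lower at an unadjusted p under 0.05. The interaction called 0 of the 46, with 3 higher and 2 lower at an unadjusted p under 0.05, and gave 0.82 for Acsl4 (adjusted p = 0.262).

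The genes whose pattern over the 12 arrays came nearest to a member were found by the root-mean-square (RMS) difference of log2 levels, each gene centred on its own mean. For Ltb4r1, with an RMS deviation of 1.13 of its own, they were Il1a at 0.28, Cdkn2b at 0.31 and Cdkn2a at 0.32, where the median over named genes was 1.15. Il1a read 5.96, 6.38 and 7.57 in RE cells and 8.59, 8.98 and 9.63 in RE+GM cells. On the Mig+GM arrays it was below background, so that RE+GM cells held at least 7.02-fold more. Cdkn2b had mean levels of 7.10 in RE and 8.95 in RE+GM cells, and Cdkn2a of 6.26 and 8.62, given as descriptions because these genes were picked for this pattern. RE replicate 3 was the highest RE array for Ltb4r1 and for each of these 3 genes. For Alox5 (1.23) they were Ifitm1 at 0.28, Scin at 0.31 and Msh6 at 0.32, with a median of 1.21. For Alox5ap (0.62) they were Palm and Lsm7 at 0.20 and Timm29 at 0.21, and for Lta4h (0.41) Dld at 0.13 and Fkbp5 and Abcf2 at 0.14. Members that varied little have near neighbours by the nature of the measure: for Ltc4s (0.27) the nearest was Slc66a1 at 0.11, and for Hpgds (0.24) Slc13a2 at 0.11 and the leukotriene receptor gene Cysltr1 at 0.12. These distances are descriptions over 12 arrays that share the 4 groups.

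**Figure D4:**
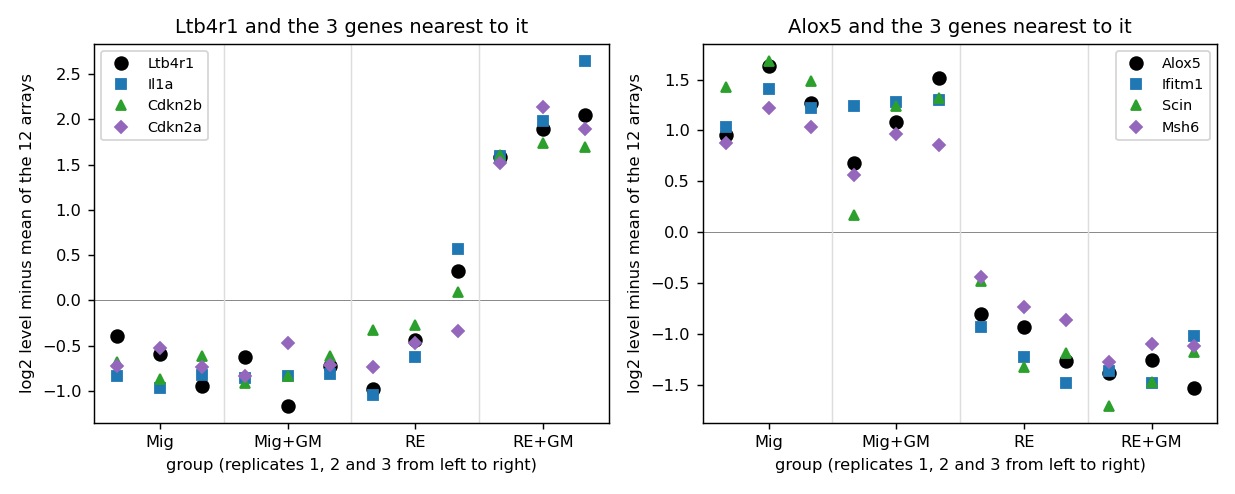
Log2 level minus the gene's mean over the 12 arrays (vertical axis) for Ltb4r1 (left) and Alox5 (right), in black, and the 3 genes nearest to each, with replicates 1, 2 and 3 side by side in each group. The genes near Ltb4r1 stand high on the RE+GM arrays, and those near Alox5 stand low on all 6 arrays with the fusion.

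Markers of the cell types that make or sense these mediators also differed between RE and Mig cells, and their part in the results was not tested. Of 13 mast cell and basophil genes 6 rose and 3 fell in each comparison. Tpsb2, Tpsab1 and Mcpt4 were above background on no Mig or Mig+GM array, so they passed the filter only through arrays with the fusion. Calls of these genes as higher therefore support nothing further. Cpa3 rose by 2.02 and 2.68, while the basophil protease genes Mcpt8 and Prss34 fell by 1.84 and 3.05 without GM-CSF. With GM-CSF Mcpt8 and Prss34 fell by 2.38 and 3.35. The log2 of that list's summed level was 15.09 to 15.48 in Mig, 14.38 to 14.89 in Mig+GM, 15.71 to 16 in RE and 15.64 to 15.88 in RE+GM cells. The sum was thus higher in RE cells, and it is weighted to the brightest probes, those of Hdc and Cpa3 (means of 14.8 and 14.43 in RE cells). Its relation to the falls of Alox5, Alox5ap and Lta4h was not tested. Of 14 neutrophil genes 3 rose and 2 fell without GM-CSF, and 1 rose and 4 fell with it; their sums were 15.04 to 16.35, 15.25 to 16.70, 14.23 to 15.40 and 13.87 to 14.90 in the same order of groups. The early granule gene Elane fell by 1.93 and 1.66, while the granule gene Lcn2 rose by 3.23 and 2.12. Mmp8 in this list was above background on 1 of 3 Mig arrays and on no Mig+GM array. It passed the filter only through arrays with the fusion, so a call of Mmp8 as higher supports nothing further. With GM-CSF 9 of the 14 were not called, and the sum is weighted to the brightest probes, such as those of Mpo and Ctsg.

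Of 9 monocyte and macrophage genes 3 rose and 1 fell without GM-CSF, and 1 rose and 1 fell with it. Their sums were 11.67 to 14.02 in Mig, 11.51 to 12.88 in Mig+GM, 13.62 to 14.10 in RE and 13.32 to 13.70 in RE+GM cells. GM-CSF in RE cells called none of these 9, none of the 14 neutrophil genes and none of the 13 mast cell and basophil genes. At an unadjusted p under 0.05 by limma, 0 rose and 1, 3 and 3 fell. Of 9 megakaryocyte genes 1 rose and 3 fell without GM-CSF and 3 rose and 3 fell with it, and GM-CSF in RE cells raised 1. Their sums were 12.21 to 12.79, 11.41 to 12.27, 12.11 to 12.89 and 13.03 to 13.79. In RE+GM cells that sum was carried by Pf4 (mean 10.79 in Mig+GM and 12.31 in RE+GM cells), Ppbp (7.11 and 11.22) and Treml1 (7.93 and 10.57). Without GM-CSF the means of Treml1 were 8.44 in Mig and 10.89 in RE cells. The means of Itga2b (6.98), Gp1bb (6.64), Gp5 (8.85), Gp9 (6.38) and Vwf (6.26) were at their lowest of the 4 groups in RE+GM cells. Of 8 erythroid genes 0 rose and 6 fell, and 1 rose and 5 fell, with sums of 14.06 to 14.21 and 13.16 to 13.94 without the fusion and 11.66 to 12.17 and 11.58 to 12.25 with it. Of 7 stem and progenitor genes 4 rose and 0 fell in each comparison, with sums of 11.13 to 11.57 without the fusion and 13.30 to 13.80 with it. Slamf1 in this list and Slc4a1 in the erythroid list were above background on no Mig or Mig+GM array. They passed the filter only through arrays with the fusion, so a call of either as higher supports nothing further. Of 5 eosinophil genes 0 rose and 1 fell without GM-CSF and 0 were called with it, with sums of 10.50 to 12.13, 9.33 to 11.03, 10.45 to 11.18 and 9.29 to 10.44.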

How the data were processed

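Total RNA of 12 sorted samples, 3 in each of 4 groups, was measured on BeadChips, and groups and replicate numbers came from the samples' titles and descriptions. The deposited main table holds bead signal intensity on a linear scale with no normalization and no detection p-values, and a further deposited table holds intensity that the authors normalized by a method not given in the sources used here. That table ranked the probes of each array as the first did (rank correlation 1), and was used as an alternative. Signals were corrected with normexp (offset 50), normalized by quantiles and logged to base 2 (log2) with limma 3.58.1 under R 4.3.3.

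In place of the planned detection p-values, each array's background was estimated from the lower flank of its signals, and the 16371 probes above it (p under 0.05) on at least 3 of 12 arrays were kept. A gene was tested by its probe with the highest mean, giving 12109 units, 973 of them probes with no gene in the annotation used. The model had 4 group means fitted over all 12 arrays and 5 contrasts, and was checked on simulated data. The number of arrays limits the precision.

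Named genes were the listed members with all their probes, the called genes of the wider list, and the 3 genes nearest to each member; Runx1t1, Cd34, some marker genes and Bcat1 were added after their values were seen. Members and lists were chosen with earlier results of these data known. Same-numbered arrays of the groups compared deviated together (correlations of 0.12 to 0.69 in the 12 pairs). Differences by numbered pair are given on the evidence of the data and the labels' numbering. The main tests did not use this pairing, and the replicate number as a block was run only as an alternative. Alternatives were 22 planned and 1 added after seeing the data.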

Additional observations from a re-analysis of the deposited data

Results flagged for a closer look

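The effect of GM-CSF on Ltb4r1 differed between RE and Mig cells by 2.4 on the log2 scale (limma interaction term, adjusted p = 0.0411): GM-CSF gave 2.2 in RE cells, higher in 3 of 3 numbered pairs, and -0.19 in Mig cells. The adjusted p over 22 alternatives ran from 0.0012 to 0.145. No reason for the difference was tested.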

How the results depend on the processing

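Of 1006 values of single members under 23 alternatives, 984 kept their side of the threshold, and no called value changed sign. The calls that moved were those of Alox5ap, Alox15 and the Ltb4r1 interaction, given with the results. Alox15 and Ptgs2 were not tested when probes had to be above background on at least 6 arrays or when the background was estimated from the lowest 90% of signals.

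GM-CSF in Mig cells called 1 unit; it called 0 with an offset of 16, with arrays scaled to one median, in the authors' normalized values, with every kept probe tested and with only the groups compared, 2 with the replicate block, and 0 to 1 when an array was left out. GM-CSF in RE cells called 274 units, against 417 in the authors' normalized values, 104 with only the groups compared, 699 with the replicate block, 479 with a random replicate block (correlation 0.155) and 118 to 905 when an array was left out, the 905 without RE replicate 3. It called 1 member, 2 with the replicate block and 1 to 2 when an array was left out, and 2 genes of the wider list, 1 with only the groups compared and 2 to 5 when an array was left out. The interaction called 32 units, against 18 with an offset of 16, 12 with arrays scaled to one median, 17 with probes above background on at least 6 arrays, 74 with the replicate block, 62 with the random block and 8 to 180 when an array was left out, the 180 without RE replicate 3. It called 1 member, 0 under median scaling and in the authors' normalized values, and 0 to 1 when an array was left out. Of the wider list it called 0, against 1 with the random block and 0 to 2 when an array was left out.

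The replicate block changed no member's call apart from Alox5ap with GM-CSF in RE cells. Of the units called in RE against Mig cells, 46.5% were higher, and 26.3% with arrays scaled to one median, where the median of all units was -0.10; for GM-CSF in RE cells the shares were 83.9%, 97.5% under median scaling and 66.9% in the authors' normalized values, and for the interaction 100%, 100% and 85%. Median scaling moved the median of all units in the interaction to 0.14. Levels near background (Alox15, Ptgs2, Ptges and 1 probe of Hpgds) limit what the arrays can show for those genes.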

Other observations

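In RE+GM against Mig+GM cells the chemokine gene Ppbp, one of the megakaryocyte genes, rose by 4.11 (SE 0.46) and Pf4 by 1.52 (SE 0.31), and without GM-CSF they gave -0.71 and -0.39 and were not called. GM-CSF in RE cells raised Ppbp by 4.31. Both genes were singled out after their values were seen. Of all 9 megakaryocyte genes, 3 rose and 3 fell in RE+GM against Mig+GM cells. Treml1, also of that list, had means of 7.93 in Mig+GM and 10.57 in RE+GM cells.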
